A study of Canis lupus familiaris with 15 samples.

Results

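The biopsy of 1 drug sensitive canine lymphoma (the dog Thai) was compared with biopsies of 3 drug resistant lymphomas (the dogs MalcolmX, Jake and Dog Y), so that 4 of the 15 arrays of the series entered the comparison. The sensitive tumour was taken by its label. The resistant tumours were taken by their label and were then chosen by a measured value, the level of MS4A1, the gene of CD20 on the surface of B cells. MS4A1 was 3.18 in MalcolmX, 2.92 in Jake and 2.68 in Dog Y, and the fourth resistant biopsy, from Rosco, was left out at -7.16, near background. Levels are on the log2 scale, as processed spot signal relative to the array's own 75th percentile. A step of 1 is therefore a factor of 2, and a negative level lies below that percentile. The sensitive biopsy had an MS4A1 level of 3.53, the highest of the 15 arrays.

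The series followed lymphoma in 5 dogs by 1-colour Agilent microarray, with 1 array per sample, and asked how treatment response relates to the activity of the anaphase promoting complex. Besides the biopsies it holds 2 skin biopsies, 1 aspirate of MalcolmX after metformin and 7 other tumour samples of Rosco. The tumours of Thai, MalcolmX, Jake and Dog Y were all sampled by biopsy as the first tumour sample of the dog. The sample title calls the tumour of Thai naive, and the description of the Dog Y tumour places it ahead of treatment although its condition is drug resistant. The title of the MalcolmX tumour marks it as the sample from before metformin. Which drugs were given, and the age, breed and lymphoma subtype of the dogs, are not stated in the labels, and each tumour is 1 dog and 1 array.

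Canine lymphoma is most often a tumour of B cells in lymph nodes, and a biopsy also carries T cells, natural killer (NK) cells, macrophages, vessels and connective tissue. Cytotoxic T cells and NK cells kill target cells with perforin and granzymes and release interferon gamma. Interferon gamma acts on macrophages and tumour cells, which then make chemokines such as CXCL10 that draw in further T cells.

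Slide, scan day and array signal differed between the sides of the comparison. The sensitive array was scanned on scan day 2 with 7 other arrays, and the 3 resistant arrays on scan day 1, so scan day and drug response cannot be told apart. The 75th percentile signal was 685 on the sensitive array and 813 to 1241 on the resistant arrays, and 73.9% of probes were well above background on the sensitive array against 66.8% to 69.8%. Symbols could be given to 5.01% of the probes, or 1357 genes, so many markers (CD3 and CD79 among them) were not analysed here. In bulk tissue, fewer cells of a type and less RNA per cell cannot be told apart.

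Across 26396 targets (a gene with a symbol, or otherwise 1 probe identifier) limma called 0% higher and 0% lower in the sensitive biopsy at an adjusted p threshold of 0.05. The smallest adjusted p from limma was 0.267, and 1566 targets had an unadjusted p under 0.05, of which 923 were higher and 643 lower. Median centring in place of the 75th percentile gave 3 calls higher and 1 lower. No difference below passed the test, and each is therefore given as a value and as its place against the range of the 3 resistant biopsies. That range is easily left: the sensitive value lay above all 3 for 25.9% of targets and below all 3 for 23.7%. It lay beyond the nearest resistant value by 2-fold or more for far fewer, 3.16% above and 2.15% below. Every count of list members above or below all 3 is to be read beside these shares, and beside those of genes with a symbol, given below. Among all 15 arrays the sensitive biopsy was highest for 4.51% of targets and lowest for 4.35%. The median difference over all targets was 0.018, and the 3 resistant biopsies had a median SD of 0.40. With the deposited series table in place of the processed signal, the share above among targets beyond all 3 moved from 52.2% to 35.2%.

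Of the 1095 tested genes with a symbol, 48 (4.38%) lay 2-fold or more above all 3 resistant biopsies and 26 (2.37%) lay 2-fold or more below them. By any amount, 28.0% of these genes lay above all 3 and 19.0% below. The gene lists hold only genes with a symbol. The genes farthest above were LOC480600, IFNG, IL21, CEACAM23 and CXCL10, and those farthest below were LOC478000, BHLHE41, CD1B and IL6. The plot of sensitive against resistant levels shows the genes far above the diagonal mostly at low resistant levels.

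**Figure D1:**
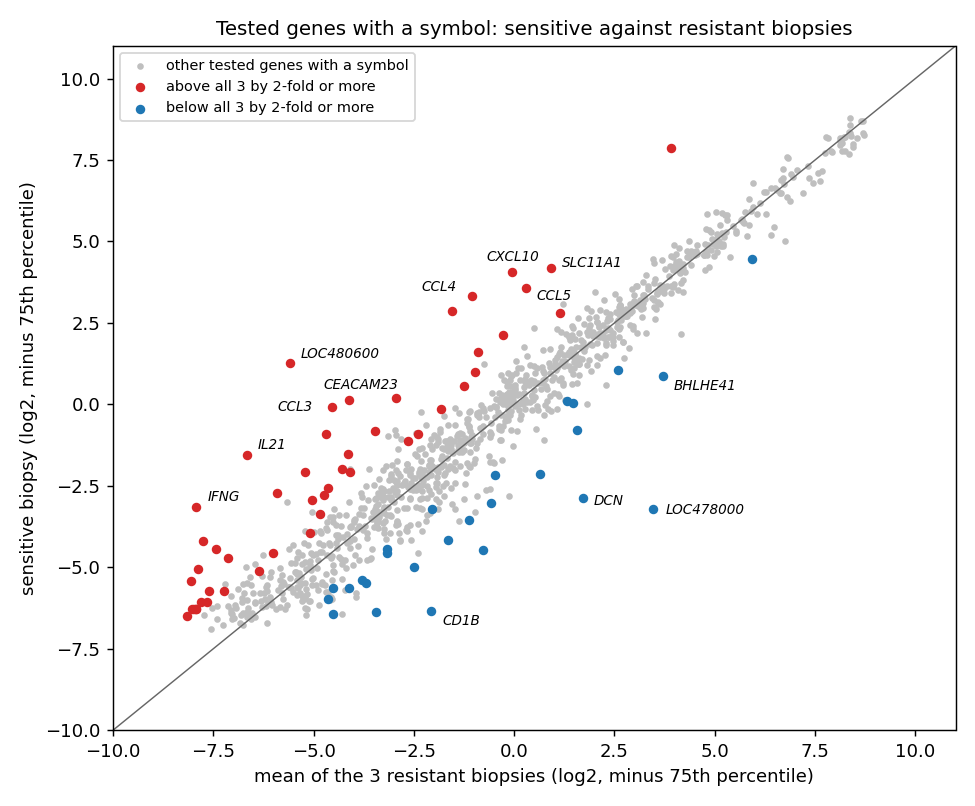
Level of each of the 1095 tested genes with a symbol in the sensitive biopsy (y axis) against the mean of the 3 resistant biopsies (x axis), both log2 relative to the array's 75th percentile; the line marks equal levels. Red points (48) lie 2-fold or more above the highest resistant biopsy and blue points (26) 2-fold or more below the lowest, and LOC480600 and LOC478000 stand farthest from the line among the labelled genes.

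Several T cell and NK cell genes lay well above the resistant biopsies. CD28, KLRD1, IFNG and CD8A were chosen with this contrast known, so their levels are a description and carry no test. CD8A, a chain of the co-receptor of cytotoxic T cells, was -1.53 in the sensitive biopsy and -4.09, -4.44 and -3.91 in MalcolmX, Jake and Dog Y. CD28, the costimulatory receptor of T cells, was -2.72 against -5.68, -7.37 and -4.69, and was well above background on 1 of those 3 resistant arrays. KLRD1, which encodes the NK receptor subunit CD94, was 0.19 against -2.73, -2.67 and -3.46. The 3 genes exceeded the nearest resistant biopsy by 5.21-fold, 3.94-fold and 7.25-fold, and on no probe of CD8A did the groups overlap.

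IFNG, which encodes interferon gamma, was -3.15 in the sensitive biopsy and -7.65, -8.14 and -7.97 in the resistant ones. It was not well above background on any of the 3 resistant arrays, and the sensitive level was at least 16.0-fold higher than their mean. The bound rests on the Agilent processed signal: with normexp background correction the mean difference of IFNG was 0.997 in place of 4.77. For a fold written as "at least", each dim array enters with the lowest signal well above background on it, or with its own signal where that is higher. The fold is then taken against the mean of the 3 resistant arrays, so it is no bound on the gap to a single biopsy. The sensitive value was the highest of the 15 arrays, and the next highest, the aspirate of Rosco after failed chemotherapy, was at -5.22.

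Of all targets 25.9% lay above all 3 resistant biopsies, 23.7% below, and 3.16% above by 2-fold or more. Of 9 T and NK cell markers with a symbol, 8 were tested, 7 of them (87.5%) lay above, 0 below, and 5 above by 2-fold or more. CD28, KLRD1 and CD8A, which were chosen with this contrast known, are among these, and without them 4 of 5 lay above, 2 of them by 2-fold or more. Of the 8, 2 passed the filter on low signal only through the sensitive array, and FOXP3, the regulatory T cell factor, was too dim. PRF1, the pore-forming perforin, was -1.996 against -4.46, -4.55 and -3.87. CCL5, a chemokine made by activated T and NK cells, was 3.59 against 0.82, 0.43 and -0.37, a difference of 3.29 with an SE of 0.59 (limma adjusted p = 0.587). Both were clear of the resistant range, by 3.68-fold and 6.78-fold.

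Other markers on the same list lay close to the resistant range or inside it. CD4, the co-receptor of helper T cells, was -2.83 against -2.93, -3.17 and -3.34, only 0.10 above the nearest biopsy. FASLG, the death ligand of cytotoxic cells, was -1.91 and lay inside the resistant range of -2.74 to -1.66. NCR1, which encodes the NK receptor NKp46, was -4.32 against -5.53, -5.10 and -4.78, and its difference of 0.81 turned to -0.045 with normexp background correction. The list's median difference was 2.46, beside 0.018 over all targets; it was 0.81 without CD28, KLRD1 and CD8A, and 1.03 with normexp.

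High levels of these genes were not restricted to the sensitive biopsy. The aspirates of Rosco after failed chemotherapy and in remission were higher for CD8A (3.21 and 2.89) and for CD28 (1.00 and 1.41). For KLRD1 the remission aspirate, at 0.57, was higher than the sensitive biopsy, and PRF1 was close to it in both aspirates (-1.78 and -1.87). The sensitive biopsy ranked 3 of 15 for CD8A, CD28 and PRF1, and 2 of 15 for KLRD1. The 3 relapse aspirates of Rosco stayed below it for all 4 genes, at -3.97 to -3.04 for CD8A and -4.52 to -3.66 for CD28. These aspirates were scanned on the same day as the sensitive biopsy.

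**Figure D2:**
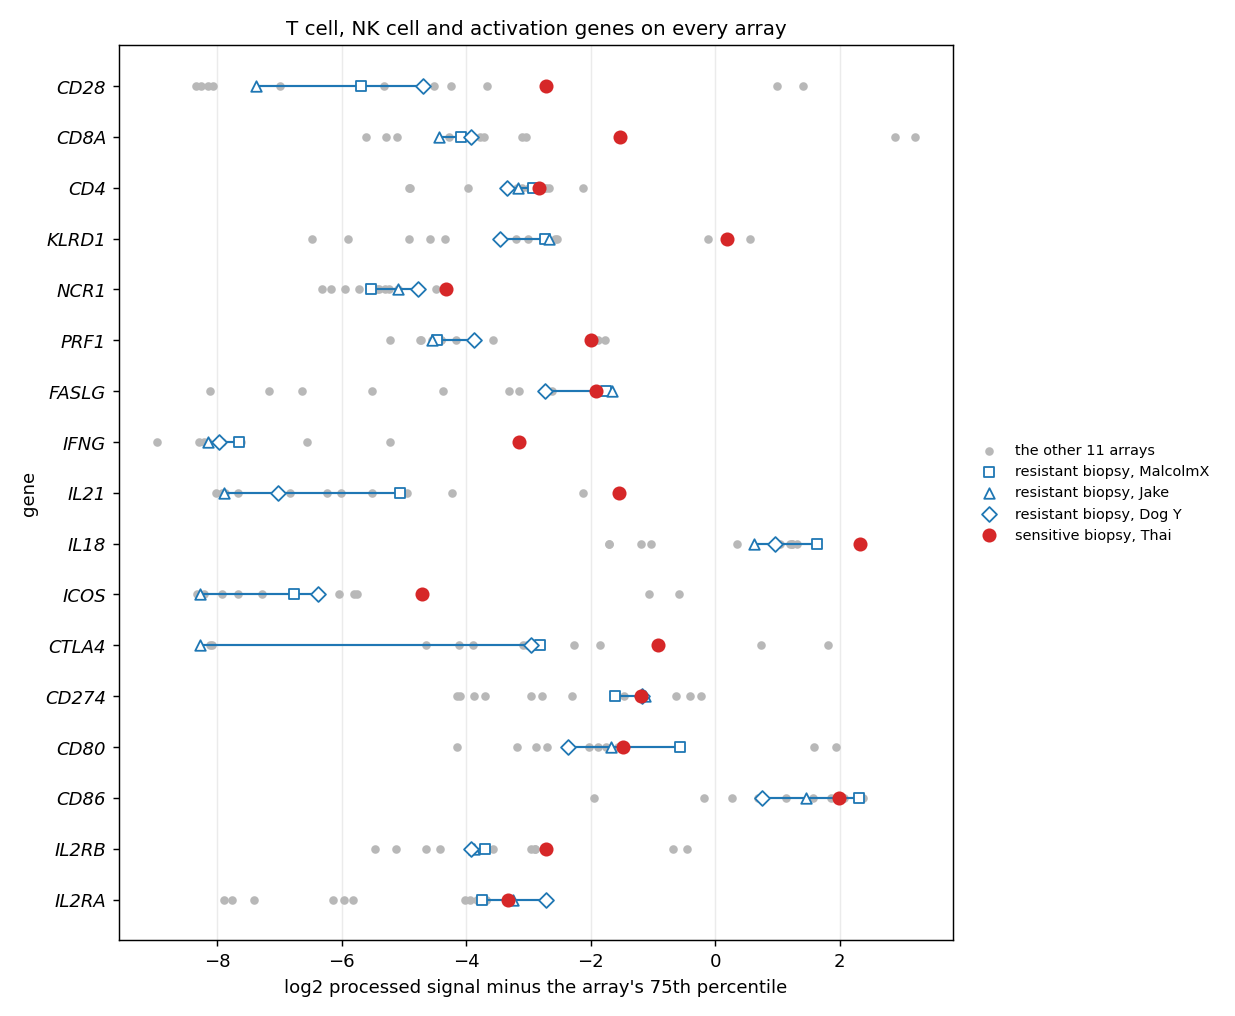
Level (x axis, log2 relative to the array's 75th percentile) of 17 T cell, NK cell and activation genes (y axis) on every array: the sensitive biopsy in red, the 3 resistant biopsies as open blue symbols joined by a line that spans their range, and the other 11 arrays in grey. IFNG and IL21 have the sensitive biopsy as the rightmost point, whereas for CD28, CD8A, ICOS and CTLA4 a pair of grey arrays lies farther right.

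Among genes of T cell activation were some of the widest gaps of the comparison, beside others with none. IL21, a cytokine of helper T cells that acts on B cells and cytotoxic cells, was -1.55 in the sensitive biopsy and -5.06, -7.88 and -7.02 in the resistant ones. That made it the highest of the 15 arrays and 11.4-fold above the nearest resistant biopsy (difference 5.11, SE 1.12, limma adjusted p = 0.669), and the second IL21 probe placed the arrays alike, at -2.998 against -7.48, -8.22 and -7.94. With the first IL21 probe 1 of the 3 resistant arrays was well above background, and with the second probe 0 were. Over the alternatives the mean difference of IL21 ran from 1.72 to 5.91. IL18, which induces interferon gamma, was 2.33 against 1.63, 0.63 and 0.96 and was again the highest of the 15.

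Receptors that restrain or support T cells also lay above the resistant biopsies, with more spread. CTLA4, an inhibitory receptor, was -0.91 against -2.82, -8.28 and -2.96, where the low Jake value adds to the mean difference of 3.77. Its second probe gave -3.40 against -6.22, -5.33 and -6.26, with Jake the highest resistant biopsy. ICOS, a costimulatory receptor, was -4.71 and not well above background in any resistant biopsy. It was at least 3.75-fold above their mean but 3.20-fold above the Dog Y biopsy, and its mean difference of 2.43 was 0.21 with normexp. IL2RB, a subunit of the receptors for IL-2 and IL-15, was -2.72 against -3.70, -3.87 and -3.92. TNFRSF18, the costimulatory receptor GITR, was -2.21 against -2.91, -2.97 and -3.36. ICOS, CTLA4 and IL2RB ranked 3 of 15, again behind the failed chemotherapy and remission aspirates.

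Ligands of CD28 and CTLA4 lay inside the resistant range, and so did CD274 and IL2RA. CD80, a ligand of CD28 and CTLA4, was -1.48 between -2.36 and -0.56, and CD86, the other such ligand, was 1.99 between 0.75 and 2.32. CD274, the ligand PD-L1, was -1.18 between -1.61 and -1.13, although its dimmer probe placed it above all 3, by a mean difference of 1.12. IL2RA, the high-affinity IL-2 receptor subunit, was -3.33 between -3.75 and -2.72. Of 24 activation genes with a symbol, 21 were tested, and 7 of the 21 passed the filter only through the sensitive array. Above all 3 lay 12 (57.1%), below 0 and within 9, beside 25.9% above and 23.7% below for all targets. The 4 above by 2-fold or more, IFNG, IL21, ICOS and CTLA4, all passed only through the sensitive array. The median difference of the list was 0.85. Without IFNG 11 of 20 lay above, and the median was 0.67. The remaining members named by the rule were within the resistant range (CD40LG, IL5, IL17A, SLAMF1 and CSF2) or above it by less than 2-fold (IL2, IL2RG, IL12A, IL12RB2 and IL15). Differences of CD80, IL17A, CD274, IL5, CSF2 and IL2 changed sign under 1 or more of quantile scaling, normexp or the series table.

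Inflammatory chemokines gave some of the widest gaps. CXCL10, the interferon-induced ligand of CXCR3, was 4.06 in the sensitive biopsy and 0.01, 0.79 and -0.99 in the resistant ones. The difference was 4.12 with an SE of 0.76 (limma adjusted p = 0.587), the gap to the nearest biopsy 9.66-fold, and the second CXCL10 probe gave 3.85 against -0.23, 0.52 and -1.05. No other array of the series exceeded 0.79.

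CCL4, a chemokine made by macrophages and cytotoxic lymphocytes, was 3.32 against 0.13, -1.17 and -2.12. CCL3, a related chemokine, was -0.10 against -3.13, -4.77 and -5.74. LOC480600 had the largest gap upward of any gene with a symbol, 1.26 against -5.15, -5.46 and -6.16, which is 84.9-fold above the nearest resistant biopsy (limma adjusted p = 0.267). In the RefSeq gene table LOC480600 is a protein-coding gene whose neighbours include CCL4, CCL3, CCL23, CCL14, CCL16 and CCL5. Genes of such clusters can be close copies, and whether the probes of CCL3, CCL4 and LOC480600 tell them apart was not tested. All 3, with CCL5 and CXCL10, were highest in the sensitive biopsy among the 15 arrays, and for LOC480600 the next highest was the failed chemotherapy aspirate at -1.40.

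The rest of the chemokine system lay on both sides. Of 29 chemokines and receptors with a symbol 25 were tested, 9 (36%) lay above all 3 resistant biopsies, 7 (28%) below and 9 within. For all targets the shares were 25.9% above and 23.7% below. Of the 25, 7 passed the filter on low signal only through the sensitive array. CCL13 and CXCR2, both counted above, were not well above background on any of the resistant arrays compared. The list's median difference of 0.074 turned to -0.23 with normexp and to -0.066 with the series table. CCL17, a ligand of CCR4, was -5.00 against -2.07, -3.77 and -1.67. CCR4 itself was -3.67 against -3.50, -1.99 and -1.72, and CCR3 was -4.43 against -3.37, -2.87 and -3.29. CCL21, which guides T cells and dendritic cells into lymph nodes, was -1.76 against -0.23, 0.10 and -1.46. CXCR3, the receptor of CXCL10, was -3.26 and lay within -4.21 to -2.64.

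CXCL10 stood apart from the other interferon genes. Of 8 interferon response genes, 3 (37.5%) lay above all 3 resistant biopsies, 0 below and 5 within, beside 25.9% above and 23.7% below for all targets. MX1, an antiviral GTPase, was 4.99 within 4.33 to 5.94. OAS1, OAS2 and OAS3, sensors of viral RNA, also lay within the resistant range, at 2.17, 4.61 and -2.48. EIF2AK2, the kinase PKR, was -0.67 against -1.39, -0.93 and -1.07, a gap of 0.26.

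Antigen presentation genes were at similar levels with a few exceptions. Of 20 tested, 9 (45%) lay above all 3, 2 (10%) below and 9 within, beside 25.9% above and 23.7% below for all targets. The list's median difference was 0.43. The class I genes DLA88 (7.58 against 6.69, 6.97 and 6.71) and DLA-64 (8.21 against 7.60, 7.89 and 7.85) lay above by less than 2-fold. PSMB8, a subunit of the immunoproteasome, was 4.88 against 3.50, 4.02 and 4.45. DLA-79, a divergent class I gene, was 1.62 against -0.32, 0.01 and -2.42, and probes of class I genes can share targets, which was not tested. The class II genes DLA-DRA, DLA-DQA1 and DLA-DQB1 lay within the resistant range, at 6.06, 2.33 and 6.75.

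Of 4 CD1 genes, whose products present lipids to T cells, 2 lay below all 3 resistant biopsies and 2 within. CD1B was -6.34 against 0.95, -4.06 and -3.08, 2.28 below the nearest biopsy. Part of its mean difference of -4.28 came from the high value in MalcolmX. CD1C was -4.56 against -3.08, -3.02 and -3.41, 1.14 below the nearest biopsy. CD1A6 and CD1A8, of the same family, lay within the resistant range at -2.60 and -2.01, and the mean difference of CD1A8 was 1.25.

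Among 17 tested monocyte and macrophage markers, 8 (47.1%) lay above all 3 resistant biopsies, 1 (5.88%) below and 8 within. For all targets the shares were 25.9% above and 23.7% below. All 17 passed the filter through the resistant arrays too. SLC11A1, the phagosomal metal transporter NRAMP1, was 4.17 against 1.11, 0.23 and 1.42, a difference of 3.25 with an SE of 0.60 (limma adjusted p = 0.587). It was the highest of the 15 arrays, 6.74-fold above the nearest resistant biopsy, and its second probe gave 1.94 against -0.43, -1.03 and -0.60. HMOX1, the heme-degrading enzyme heme oxygenase 1, was -0.82 against -2.58, -3.51 and -4.29. FCER1G, the signalling chain of Fc receptors, was -2.07 against -3.70, -4.43 and -4.18.

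Other myeloid markers differed less. CD163, the hemoglobin scavenger receptor, was -0.20 against -0.64, -0.21 and -2.45, only 0.01 above the Jake biopsy. TYROBP, an adaptor of myeloid and NK receptors, was 2.95 against 2.09, 1.498 and 1.88, and CTSS, the lysosomal protease cathepsin S, was 3.96 against 3.24, 3.34 and 3.27. CYBB, FCGR1A and TLR2 lay within the resistant range. IL6 went the other way at -6.39 against -4.51, -2.34 and -3.49. IL1B was not well above background in the sensitive biopsy or in any of the 3 resistant ones. LOC403585, which the RefSeq table lists under the synonym SAA next to SAA1, an acute phase gene, was 2.88 against -0.60, -0.05 and -3.97 and the highest of the 15.

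**Figure D3:**
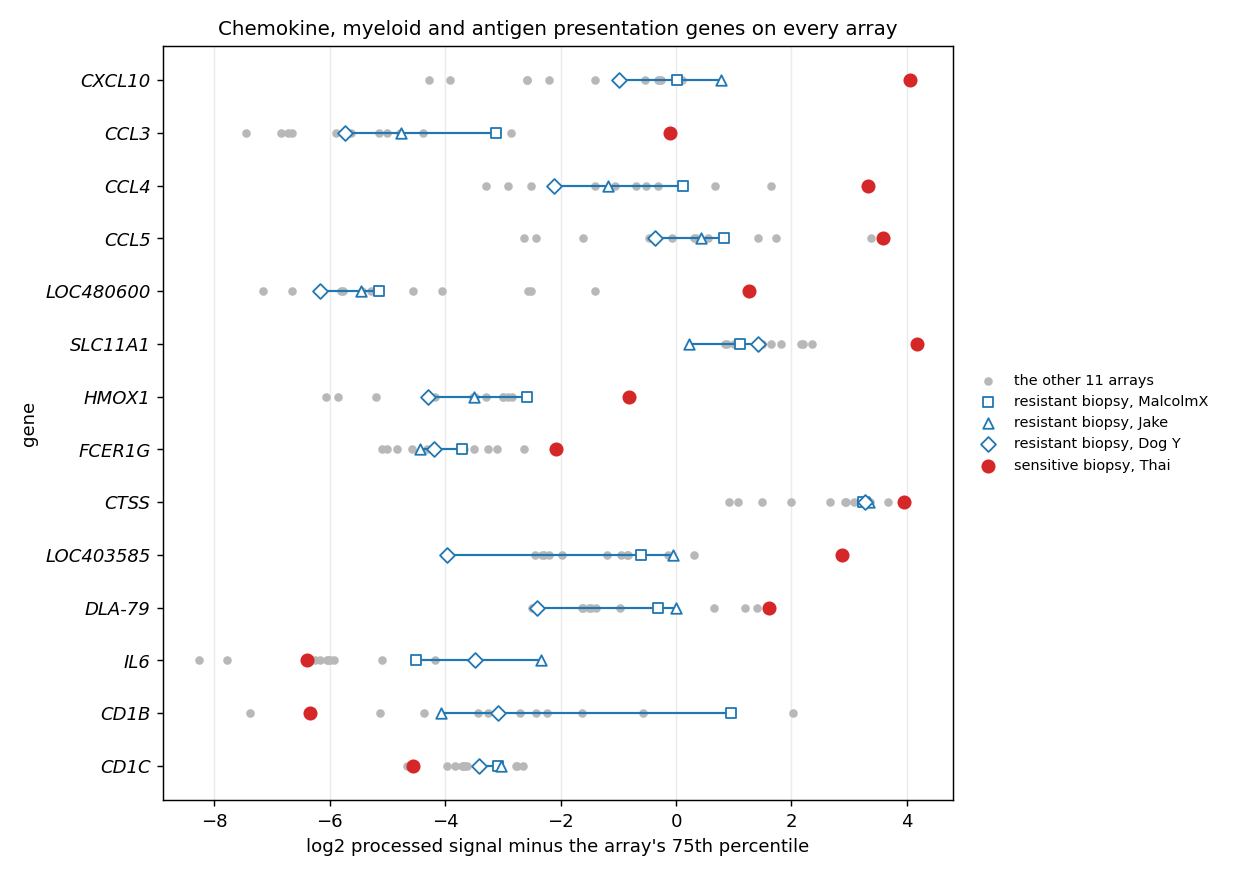
Level (x axis, log2 relative to the array's 75th percentile) of 14 chemokine, myeloid and antigen presentation genes (y axis) in the sensitive biopsy (red), the 3 resistant biopsies (open blue symbols, with a line over their range) and the other 11 arrays (grey). The sensitive biopsy is the rightmost point for the first 11 genes, from CXCL10 to DLA-79, and lies left of all 3 resistant biopsies for IL6, CD1B and CD1C.

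Of the B cell markers, 5 had a symbol, and of 4 tested 2 lay above all 3 resistant biopsies and 2 within. Since MS4A1 chose the resistant biopsies, its levels support nothing further. CD40, a receptor on B cells and antigen-presenting cells, was 4.59 within 4.48 to 5.10, and MME, the germinal centre marker CD10, was -2.90 within -3.88 to -0.57. BCL6, the germinal centre repressor, was -5.53 and not well above background in the resistant biopsies. It was at least 2.45-fold above their mean but only 1.61-fold above the MalcolmX biopsy, and its mean difference of 1.68 was 0.012 with normexp. BCL2, which blocks apoptosis, was 2.20 against 3.18, 3.82 and 2.86, a difference of -1.08 with an SE of 0.53 (limma adjusted p = 0.916). LTB, the lymphocyte cytokine lymphotoxin beta, was 4.47 against 5.52, 6.08 and 6.17.

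Other apoptosis genes mostly overlapped. Of 18 tested, 5 lay above all 3 resistant biopsies, 1 lay below (BCL2) and 12 lay within, shares of 27.8% and 5.56% beside 25.9% and 23.7% for all targets. TNFSF10, the death ligand TRAIL, was 5.83 against 4.71, 4.64 and 5.05, and BAK1, a pore-forming effector of apoptosis, was 0.91 against -0.42, 0.28 and -0.03. MCL1, BAX and MDM2 lay within the resistant range at 3.55, 0.48 and 1.33.

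Cell cycle genes bear on the question of the series. UBE2S, the ubiquitin-conjugating enzyme that extends chains for the anaphase promoting complex, was the only member of that list with a symbol. It was 3.21 in the sensitive biopsy and 1.72, 2.20 and 2.80 in the resistant ones (difference 0.98, SE 0.56, limma adjusted p = 0.953), a gap of 0.41. Its second probe gave -0.95 against -2.71, -1.77 and -1.89. The 3 relapse aspirates of Rosco were higher still, at 3.27 to 3.54. Of 8 proliferation genes, 3 (37.5%) lay above all 3 resistant biopsies (UBE2S, BIRC5 and CDC25A), 0 below and 5 within. The shares for all targets were 25.9% above and 23.7% below. The list's median difference was 0.23, and CDC25A passed the filter on low signal only through the sensitive array.

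BIRC5, the mitotic inhibitor of apoptosis survivin, was 2.86 against 1.96, 1.21 and 2.56, and it too was as high or higher in the relapse aspirates (2.89 to 3.00). CDC25A, a phosphatase that starts S phase, was -4.44 against -6.04, -5.22 and -5.58, and its difference of 1.18 turned to -0.046 with normexp. TYMS, the thymidylate synthase, MYC and ASPM lay within the resistant range at 4.56, 3.16 and 0.71.

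The best known drug efflux pumps lay inside the resistant range. ABCB1, which encodes the drug efflux pump P-glycoprotein, was -2.14 within -3.31 to -1.75. ABCC1, the efflux pump MRP1, was 0.66 within 0.10 to 0.76. Of 17 tested transporters and detoxification genes, 8 (47.1%) lay above all 3 resistant biopsies, 1 (5.88%) below and 8 within. For all targets the shares were 25.9% above and 23.7% below. HMOX1 was the only gene of the list 2-fold or more above. Of 7 DNA repair genes, 3 (42.9%) lay above and 2 (28.6%) below, near the shares for all targets. Those below were XRCC1 (2.20 against 2.94, 3.05 and 3.22) and PRKDC (1.92 against 2.33, 2.85 and 3.00).

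Connective tissue genes lay lower, and the resistant biopsies differed widely among themselves. Of 15 fibroblast and matrix markers, all tested, 1 (6.67%) lay above all 3 resistant biopsies, 7 (46.7%) below and 7 within. For all targets the shares were 25.9% above and 23.7% below. The list's median difference was -1.10. DCN, the collagen-binding proteoglycan decorin, was -2.86 against 3.12, 3.71 and -1.65, so that the Dog Y biopsy was nearer to the sensitive one than to the other two. FBN1, the microfibril protein fibrillin-1, was -0.77 against 3.18, 0.85 and 0.65. TIMP3, a matrix-bound protease inhibitor, was -6.44 against -3.84, -4.60 and -5.10, and VIM, the intermediate filament vimentin, was 5.03 against 7.46, 7.34 and 5.48.

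The fibrillar collagen genes COL1A1 and COL1A2 placed the sensitive biopsy between Dog Y and the other 2. COL1A1 was 0.00 against 4.39, 1.96 and -0.93, and COL1A2 was 2.15 against 6.57, 4.74 and 1.14. COL2A1 did not, at -5.40 against -5.44, -4.99 and -5.83. Without the MalcolmX biopsy the median difference of the list was -0.51. Among 13 tested genes of endothelium and lymph node stroma, 2 (15.4%) lay above, 2 (15.4%) below and 9 within, beside 25.9% above and 23.7% below for all targets. Their median difference of -0.80 was -0.0013 without MalcolmX, -0.45 without Jake and -1.60 without Dog Y.

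SELP, the adhesion receptor P-selectin, was -3.01 against -1.56, -1.47 and 1.32, while the endothelial gene VWF, at 4.22, lay within 3.80 to 4.79. SMOC2, a matricellular protein, was -4.46 against 0.17, 0.63 and -3.14 and the lowest of the 15 arrays. SPINT2, a protease inhibitor of epithelia, was -2.15 against -0.51, -0.19 and -0.75, and PIGR, the epithelial receptor that carries IgA, was -1.29 against 0.30, -0.03 and -0.32. Both were lowest in the sensitive biopsy among the 15 arrays. Of the 8 exocrine gland epithelium markers tested, which include these, 0 lay above all 3, 3 (37.5%) below and 5 within. Beside these stand 25.9% above and 23.7% below for all targets. The list's median difference was -0.13, and 3 of the 8 passed the filter on low signal only through the sensitive array. How much the share of stroma in each biopsy bears on the other differences was not tested.

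The red cell genes SLC4A1 and SPTB were too dim to be tested. Of 12 keratinocyte and skin markers with a symbol, 9 were tested, 3 of them passing only through the sensitive array. Beside 25.9% above all 3 resistant biopsies and 23.7% below for all targets, 7 of these markers (77.8%) lay above, 2 (22.2%) below and 0 within. Their median difference was 0.66, but it was 0.039 with normexp and -0.15 with all 4 resistant biopsies. KRT14, a basal keratin, was 1.61 against 1.19, 1.15 and 1.11, and JUP, the junction protein plakoglobin, was 0.25 against 0.80, 0.78 and 1.77. The part of skin cells in the other differences was not tested. KRT1 and DSG1, of keratinocytes, were both -6.28 in the sensitive biopsy, at least 1.83-fold and 1.82-fold higher than the mean of the resistant ones. On the array where each was highest they were 8.26 and 2.93. With normexp their mean differences were 0.012 and 0.039, and DSG1's was 0.32 with the mean of its probes. Ribosomal protein genes, whose products every cell uses, were bright everywhere. Of 12 tested, 0 lay above all 3, 3 (25%) below and 9 within, with a median difference of -0.26.

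The other lists held few members with a symbol. Beside their counts stand 25.9% above all 3 resistant biopsies and 23.7% below for all targets. Of 7 neutrophil genes 1 lay above all 3 resistant biopsies and 1 below, the latter being PI3, the elastase inhibitor elafin, at 0.59 against 2.89, 2.57 and 1.38. Of 4 mast cell genes 1 lay below, FCER1A, a chain of the IgE receptor, at -4.15 against -1.18, -3.90 and -2.64. Of 5 fat cell genes 1 lay above and 2 below, and of 5 glycolysis genes 1 lay above and 1 below. SLC2A1, the glucose transporter GLUT1, was 1.02 against 2.33, 1.52 and 1.88 and the lowest of the 15 arrays. Of the NF-kB and CD40 genes, all 4 tested lay within the resistant range, NFKB1 at 3.04 and BIRC3 at 2.09.

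**Figure D4:**
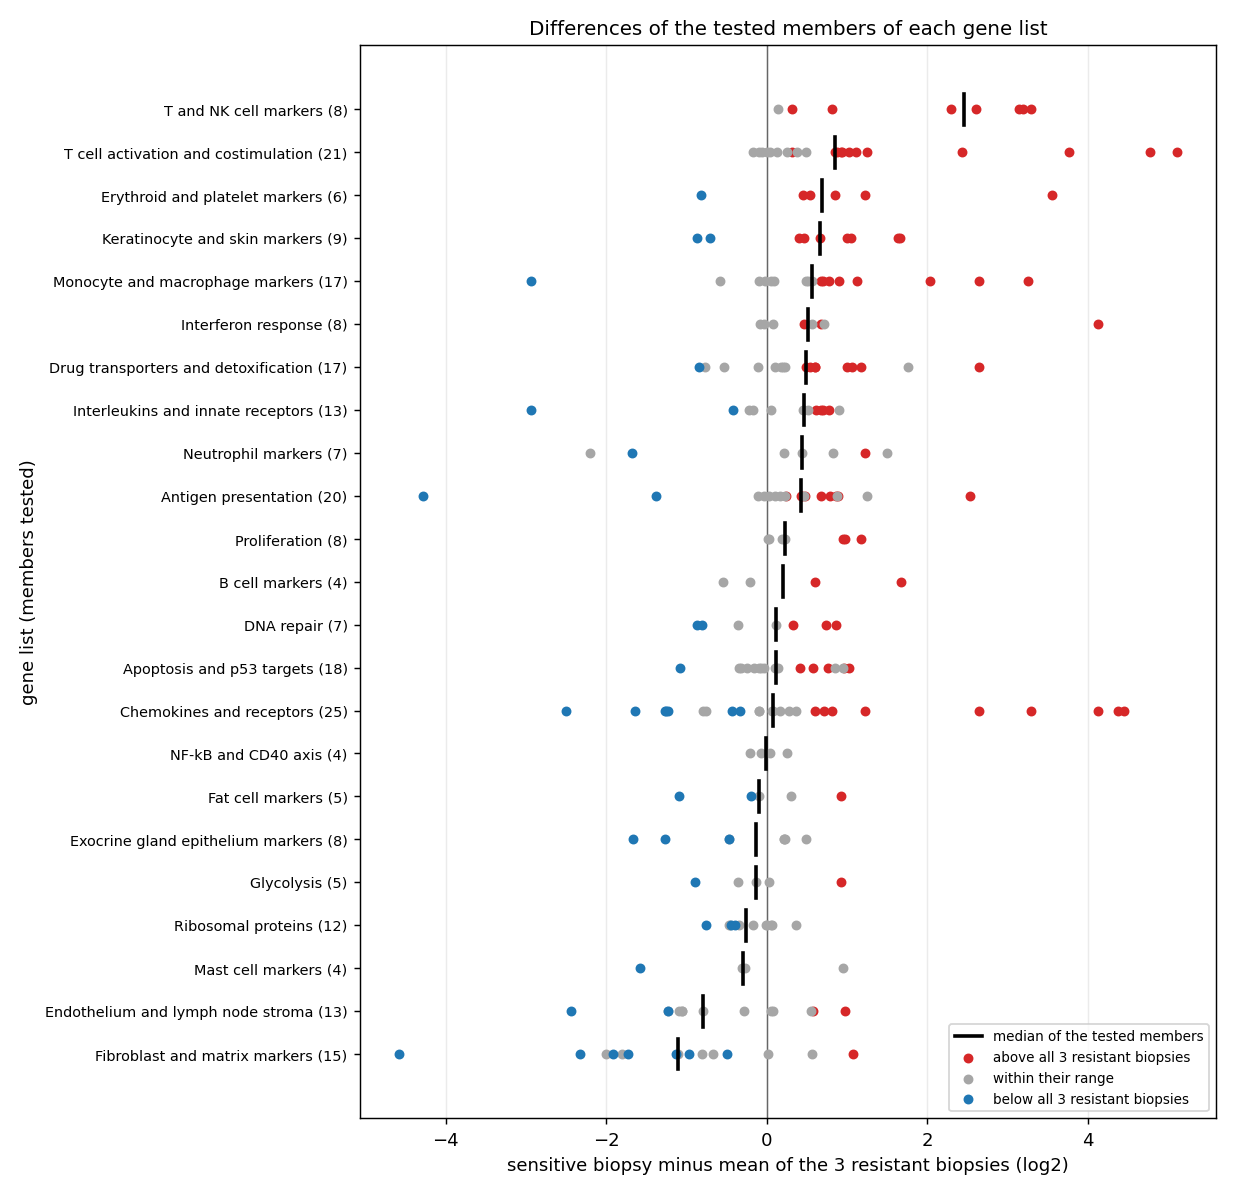
Difference between the sensitive biopsy and the mean of the 3 resistant biopsies (x axis, log2) for each tested member of the gene lists with 4 or more tested members (y axis, the number tested in brackets; lists share some genes). Black bars are medians; that of T and NK cell markers is 2.46, or 0.81 without the 3 genes chosen with this contrast known, that of fibroblast and matrix markers is -1.10, and single chemokines lie beyond 4.

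A pair of genes outside these lists lay below all 3 resistant biopsies while those 3 lay close together. LOC478000 was -3.21 in the sensitive biopsy and 3.03, 3.72 and 3.67 in the resistant ones, 75.4-fold below the nearest (difference -6.68, SE 0.48, limma adjusted p = 0.267). All other arrays of the series, of 4 dogs, lay between 2.16 and 6.17, and the second probe also placed it below, at -5.21 against 1.96, 2.86 and 2.71. BHLHE41, a transcriptional repressor of the circadian clock, was 0.88 against 3.64, 3.81 and 3.70 (difference -2.84, SE 0.40, limma adjusted p = 0.488). The failed chemotherapy and remission aspirates were lower still for it, at -0.53 and -1.47.

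CEACAM23, a member of the carcinoembryonic antigen family, was 0.13 against -3.35, -4.41 and -4.58 and the highest of the 15, with a second probe at -1.58 against -5.56, -6.74 and -6.82. GPR83, a G protein-coupled receptor, was -2.06 against -5.24, -5.28 and -5.14, but the Rosco resistant biopsy was higher at -1.43. TAAR5, a trace amine receptor, was -5.64 against -4.08, -4.14 and -4.13.

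**Figure D5:**
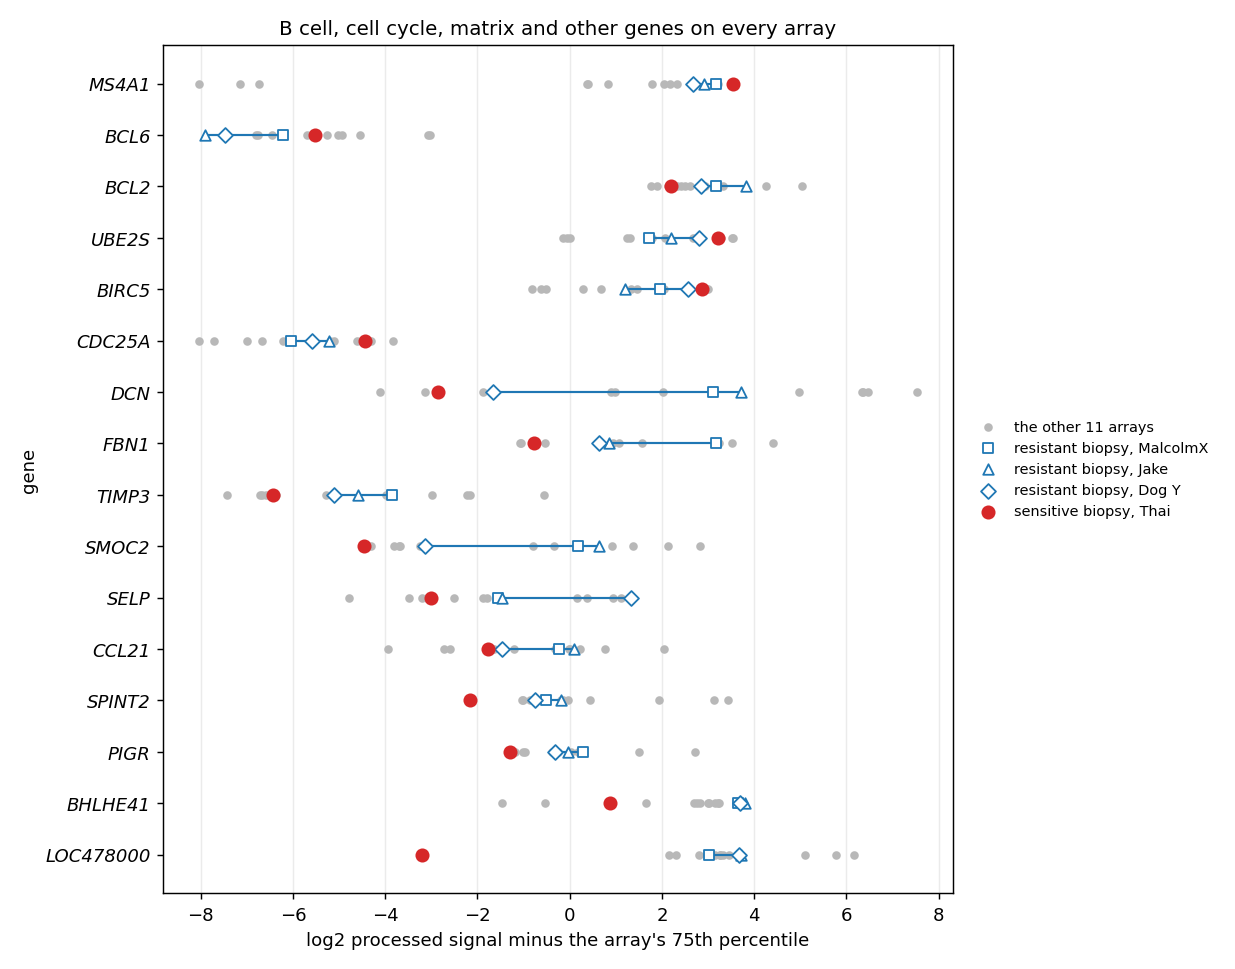
Level (x axis, log2 relative to the array's 75th percentile) of 16 B cell, cell cycle, matrix and other genes (y axis) in the sensitive biopsy (red), the 3 resistant biopsies (open blue symbols, with a line over their range) and the other 11 arrays (grey). LOC478000 is at -3.21 in the sensitive biopsy with all other arrays at 2.16 or above, and DCN and SMOC2 show a Dog Y biopsy apart from MalcolmX and Jake.

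When limma took the spread from groups over all 15 arrays it called 19 targets higher and 8 lower. Most of these carry no symbol, and those with a symbol were LOC478000 (difference -6.68, SE 0.64) and IFNG. IFNG was picked with this contrast known and was not well above background on any resistant array, so its place here carries no weight. The spread from all 15 arrays includes repeated samples of Rosco and assumes the single sensitive tumour varies like the other groups. With 1 sensitive dog, a difference between these tumours cannot be told apart from a difference between dogs.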

How the data were processed

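RNA from 15 canine samples was labelled with Cy3 and hybridised to Agilent arrays. The authors read spot intensity with Agilent Feature Extraction 11.0.1.1, per the file headers. It subtracted local background and spatial trend within each array and did not normalise between arrays. The deposited flags of 0 or 1 mark, per the file headers, spots that are well above background, saturated or outlying. The deposited series table holds intensity as spot median minus background median: 678300 of 678300 cells were equal within 0.01.

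Of 43803 non-control spots per array, 2 to 50 outlying ones were left out and 0 were saturated. The processed intensity was put on the log2 scale, the array's 75th percentile was subtracted, and spots of 1 of the 43603 probes were averaged. Probes took symbols through RefSeq accessions (2186 probes), and others kept their identifier, which gave 36604 targets. The probe with the highest mean stood for a target. Of 46 named genes with several probes, 13 had probes that differed in position against the resistant range and 7 in sign. Targets had to be well above background on the sensitive array or on all 3 resistant arrays. limma 3.58.1 in R 4.3.3 compared 1 with 3 arrays, two-sided, and p-values were adjusted by Benjamini-Hochberg over all 26396 targets. Of these, 23 had only 2 resistant values. The SE is that of the model, and the single array borrows its spread from the other side. Precision is limited by the number of arrays. The script was checked on simulated data.

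The samples, gene lists, tests and alternatives were chosen with earlier results of these data known. Named genes were the 4 markers, all members of both T cell lists, up to 4 members of each other list with the largest gap to the nearest resistant value, and the 12 higher and 12 lower genes with the largest gap. Values of further genes, given beside these, were picked after they were seen. The reference assembly differs from that of the array grid, so no positions are given, and probe sequences were not used here. Alternatives were quantile scaling, median centring, normexp (offset 50), the series table, 2 other filters, all 4 resistant biopsies, the spread from all 15 arrays without and with slide as a random block (the latter added after seeing the data), the mean of probes, and leaving out each resistant biopsy. Both T cell lists were also counted without the markers, likewise added after seeing the data. A few results that the naming rule took are not reported here.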

Additional observations from a re-analysis of the deposited data

Results flagged for a closer look

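Among the 102 named genes, 12 (11.8%) had 1 of the 4 resistant biopsies far from the other three, with a gap to the nearest that exceeded Dixon's critical share of the whole range; chance gives such a gap in about 1 in 20 groups whose values did not choose them. Many of these genes were named for a gap between the sensitive biopsy and 3 of these 4, so their share is not read against that rate. The Rosco biopsy, which was not compared above, stood apart in 11 of them and the Jake biopsy in 1. Rosco was lowest for MS4A1 (-7.16), IL2RG (-4.29), CD274 (-4.14), TRIM34 (-6.91), BRCA1 (-6.91), CTSS (2.00) and TAAR5 (-4.80). Rosco was highest for the epithelial genes SPINT2 (3.43) and CLDN3 (2.88), and for IL12RB2 (0.015) and GPR83 (-1.43). Jake was lowest for CSF2 (-7.92), which was not well above background in any resistant biopsy. The MS4A1 value is the one that the choice of biopsies used. What sets the Rosco biopsy apart was not tested.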

How the results depend on the processing

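Of 1307 results of named genes under 13 alternatives, 1279 kept the direction of the difference and 28 did not, and 87 of 102 genes never turned. Part of this count was fixed beforehand. Changing only the filter, or only the spread, left a gene's difference as it was, at 4.77 for IFNG. Genes beyond the whole resistant range, for which many were named, cannot turn when a resistant biopsy is left out. The count is therefore no measure of how robust the directions are. The turned values were, with quantile scaling, CD80 -0.0089 and IL17A 0.0074; with normexp, NCR1 -0.045, FASLG -0.016, CD274 -0.062, IL2 -0.049, IL5 -0.25, CSF2 -0.14, CXCR2 -0.032, DES -0.079, CDC25A -0.046 and ABCC2 -0.087; with the series table, CD80 -0.0058, IL5 -0.19 and CSF2 -0.47. With all 4 resistant biopsies they were IL2RA 1.04, SLAMF1 0.35 and the keratinocyte list's median -0.15. With each resistant biopsy left out in turn, differences that turned ran from -0.20 to 0.34 for FASLG, -0.028 to 0.21 for CD274, -0.37 to 0.53 for CD80, -0.50 to 0.74 for CD40LG, -0.35 to 0.16 for IL2RA, -0.27 to 0.28 for IL5, -0.53 to 0.50 for SLAMF1 and -0.36 to 0.76 for CSF2. With slide as a random block IL5 was -0.014. The cause was not tested. Normexp and the series table moved the median difference of all targets to -0.14 each.

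limma called 0 targets in each direction under the main setting and under the alternatives other than these: median centring called 3 higher and 1 lower, and the spread from all 15 arrays called 19 and 8, with or without slide as a block. The 835 targets 2-fold or more above all 3 became 150 with normexp, 423 with the series table and 318 when every array had to be well above background. The 568 below became 162 with normexp, 1829 with the series table, 1292 with no filter and 333 with all 4 resistant biopsies. Leaving out 1 resistant biopsy, so that only 2 had to be passed, gave 1247 to 1311 above, and below 892 without MalcolmX, 1003 without Jake and 1837 without Dog Y. No paired analysis was possible because each tumour compared came from a different dog. Genes near background, IFNG and ICOS among them, have only a bound in the resistant biopsies.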

Other observations

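Of the 74 genes with a symbol that lay 2-fold or more beyond all 3 resistant biopsies, 36 lay outside the naming rule, 25 above and 11 below. The genes given here were picked from them after their values were seen. CPT1A, which brings fatty acids into mitochondria for oxidation, was 2.11 in the sensitive biopsy against -0.75, -0.19 and 0.11 in MalcolmX, Jake and Dog Y, and was the highest of the 15 arrays. GLUL, the glutamine synthetase, was 2.81 against 1.37, 1.16 and 0.90. CD38, an enzyme on activated lymphocytes and plasma cells, was 1.00 against -0.29, -1.16 and -1.46, and ADGRE5, the leukocyte adhesion receptor CD97, was -0.92 against -2.42, -2.17 and -2.63. Each of these also was higher on some other array of the series except CPT1A, whose next highest value was 1.87.

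The macrophage elastase MMP12 was -2.94 against -4.29, -6.56 and -4.30. The metalloprotease MMP7 and the monocyte chemokine CCL13 were not well above background in the resistant biopsies. In the sensitive one they were at least 4.21-fold and 3.34-fold above the mean of the resistant ones. Below the resistant range, LGALS3, the galactose-binding lectin galectin-3, was -2.15 against 1.31, 1.55 and -0.96 and the lowest of the 15 arrays. RECK, an inhibitor of matrix metalloproteases, was -5.97 against -4.24, -4.91 and -4.76 and also the lowest. No target among these passed limma.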
